A study of Mus musculus with 2 samples.

Results

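The promoters described here belong to 1834 long non-coding RNA genes of the mouse autosomes, out of 21201 autosomal gene promoters with methylation measured in both libraries. A long non-coding gene was one that the GENCODE vM21 annotation places among its lincRNA, antisense, processed transcript, sense intronic or bidirectional promoter types. Its promoter was the stretch within 1 kb on either side of the annotated start, and it was kept only where that start lay more than 2 kb from any protein-coding transcript start. A promoter counted as measured with at least 3 CpG cytosines that had at least 5 reads in both libraries and lay outside the recognition sequences of the enzymes used for the libraries. Of 9392 autosomal genes of these types, 7468 were beyond 2 kb, and 1834 of them (24.6%) were measured. Another 4829 had no usable cytosine and 805 had 1 or 2. The measured set held 1088 lincRNA, 530 antisense, 165 processed transcript, 47 sense intronic and 4 bidirectional promoter genes.

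The DNA came from cells of the mouse C3H myoblast line, differentiated into myotubes in medium with little serum and transfected with a control siRNA (siCon) or with an siRNA (siH19) that targets H19, itself a long non-coding RNA. It was harvested 48 h later. Each group is 1 library from 1 cell line, so no value has an error between cultures, and the tests below compare 2 libraries and not 2 conditions. Methylation data can show neither the loss of H19 RNA nor the state of the myotubes, so the knockdown and the cell type were not checked.

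Long non-coding RNAs are transcripts that are not translated into protein, and many of them are spliced and capped like messenger RNAs. Their promoters, like those of other genes, can carry methyl groups on the cytosine of CpG dinucleotides, and CpG-dense promoters usually stay free of methylation whereas CpG-poor ones are often methylated. Several of the best studied members, H19, Kcnq1ot1, Airn and Meg3 among them, lie in imprinted domains, where methylation of 1 parental allele keeps that copy silent.

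The sequences of 7 promoters illustrate the kinds of window that were measured. H19 is shown because it was the gene knocked down. Kcnq1ot1, Gm48693 and Gm13025 are shown because their levels differed between the libraries. Gm26709, AC132455.1 and CAAA01066123.1 stand for the promoters at intermediate, very low and very high levels. Each line gives 240 bases of GRCm38, read 5′ to 3′ on the strand of the gene, with the measured CpGs in capitals. Lower-case cg pairs had too few reads or lay in a restriction site.
H19, chr7:142578181-142578420, minus strand: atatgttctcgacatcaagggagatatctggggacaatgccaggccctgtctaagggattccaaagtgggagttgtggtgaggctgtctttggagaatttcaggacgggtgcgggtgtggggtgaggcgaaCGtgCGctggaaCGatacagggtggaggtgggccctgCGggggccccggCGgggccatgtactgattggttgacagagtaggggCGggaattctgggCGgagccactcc
Kcnq1ot1, chr7:143295560-143295799, minus strand: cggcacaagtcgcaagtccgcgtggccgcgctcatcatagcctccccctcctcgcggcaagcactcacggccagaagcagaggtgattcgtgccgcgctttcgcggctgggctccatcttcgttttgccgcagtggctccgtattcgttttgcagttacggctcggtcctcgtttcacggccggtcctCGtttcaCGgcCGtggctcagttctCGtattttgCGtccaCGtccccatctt
Gm48693, chr12:20615159-20615398, plus strand: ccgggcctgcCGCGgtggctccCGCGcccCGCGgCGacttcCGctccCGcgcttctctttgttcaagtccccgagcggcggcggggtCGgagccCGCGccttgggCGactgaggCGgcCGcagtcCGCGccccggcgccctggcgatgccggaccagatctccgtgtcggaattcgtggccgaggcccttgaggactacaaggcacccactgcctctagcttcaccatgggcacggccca
Gm13025, chr4:140680407-140680646, plus strand: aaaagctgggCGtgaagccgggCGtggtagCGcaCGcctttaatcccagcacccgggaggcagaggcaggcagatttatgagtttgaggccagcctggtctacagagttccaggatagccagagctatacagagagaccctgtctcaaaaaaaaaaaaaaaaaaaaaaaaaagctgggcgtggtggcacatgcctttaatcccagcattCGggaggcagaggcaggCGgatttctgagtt
Gm26709, chr12:72945388-72945627, plus strand: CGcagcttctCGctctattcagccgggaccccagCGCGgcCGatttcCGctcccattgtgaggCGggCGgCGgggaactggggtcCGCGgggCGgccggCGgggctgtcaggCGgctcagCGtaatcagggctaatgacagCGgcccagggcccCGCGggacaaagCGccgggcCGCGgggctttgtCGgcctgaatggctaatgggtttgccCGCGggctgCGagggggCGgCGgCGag
AC132455.1, chr17:84186316-84186555, plus strand: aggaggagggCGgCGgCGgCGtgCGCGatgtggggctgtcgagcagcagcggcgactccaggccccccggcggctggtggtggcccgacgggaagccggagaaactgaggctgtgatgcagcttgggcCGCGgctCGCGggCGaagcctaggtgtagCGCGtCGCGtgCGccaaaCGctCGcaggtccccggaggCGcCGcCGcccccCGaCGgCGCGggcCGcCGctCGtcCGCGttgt
CAAA01066123.1, chr19:6830186-6830425, minus strand: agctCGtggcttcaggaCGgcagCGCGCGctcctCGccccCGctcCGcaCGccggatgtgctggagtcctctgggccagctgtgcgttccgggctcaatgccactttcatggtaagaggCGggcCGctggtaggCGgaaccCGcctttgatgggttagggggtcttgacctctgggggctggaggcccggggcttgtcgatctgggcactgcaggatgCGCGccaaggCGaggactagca

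The H19 stretch ran from 277 to 38 bases before the start and held 12 CpGs, of which 7 were measured. The Kcnq1ot1 stretch lay 750 to 989 bases after the start, wholly inside an exon of Kcnq1ot1 and within the body of Kcnq1 on the other strand, and only 6 of its 29 CpGs were measured. The Gm48693 stretch fell in an exon of that gene, and 97 of its bases also belonged to the processed pseudogene Gm16476. The AC132455.1 stretch fell wholly in the coding sequence of Zfp36l2 on the other strand, and 111 bases of the CAAA01066123.1 stretch were coding sequence of Rps6ka4. No annotated gene overlapped the H19 and Gm26709 stretches, and the Gm13025 stretch lay in an intron of that gene. A long non-coding promoter could thus overlap the body or the exons of a protein-coding gene, since only protein-coding starts were kept away by the rule.

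The depth of the members was modest. The siCon library held 104999613 reads summed over cytosines and the siH19 library 106372792, with median depths of 12 and 13 reads per cytosine. In the members 27868 distinct cytosines of 15911 CpGs were measured, 1.55% of the 1795680 autosomal cytosines outside restriction sites, with median depths of 26 and 25. A member had a median of 8 cytosines, against 46 for the 13774 protein-coding promoters, and a median of 190 reads in siCon and 178 in siH19. The median counting error of a difference between libraries was 4.06 percentage points per member and 1.00 per protein-coding promoter. These errors come from read counts alone, and PCR copies of a molecule could not be recognised in these files. Members were not independent either: 102 shared a cytosine with another member and 68 had exactly the same cytosines as another.

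Long non-coding promoters were far more methylated than protein-coding ones, and their levels spread over the whole range. The mean level was 46.4% in siCon and 46.7% in siH19, with an SD over promoters of 32.1 points in siCon, whereas protein-coding promoters had 13.2% and 13.3%. Only 28.7% of the members were under 20% in siCon, against 78.8% of protein-coding promoters. At the other end, 20.7% of the members were over 80%, against 2.74%. No test was made of this contrast, because promoters of 1 library are not replicates.

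The contrast was seen in each CpG class, and was smallest where CpGs were sparse. Promoters were put in a high, intermediate or low CpG class by the CpG and GC content of 500 bp stretches within the window. Only 274 members were in the high class, 860 in the intermediate and 700 in the low class, against 9931, 2923 and 920 protein-coding promoters. In siCon the mean level was 20.3% for members of the high class and 7.14% for protein-coding promoters of that class. In the intermediate class the means were 49.5% and 23.7%, and in the low class 52.7% and 44.7%. The members were more methylated in each class, with the widest gap at intermediate CpG content. In siH19 the members' means were 20.7%, 50% and 52.8%, each within 1 point of siCon.

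**Figure D1:**
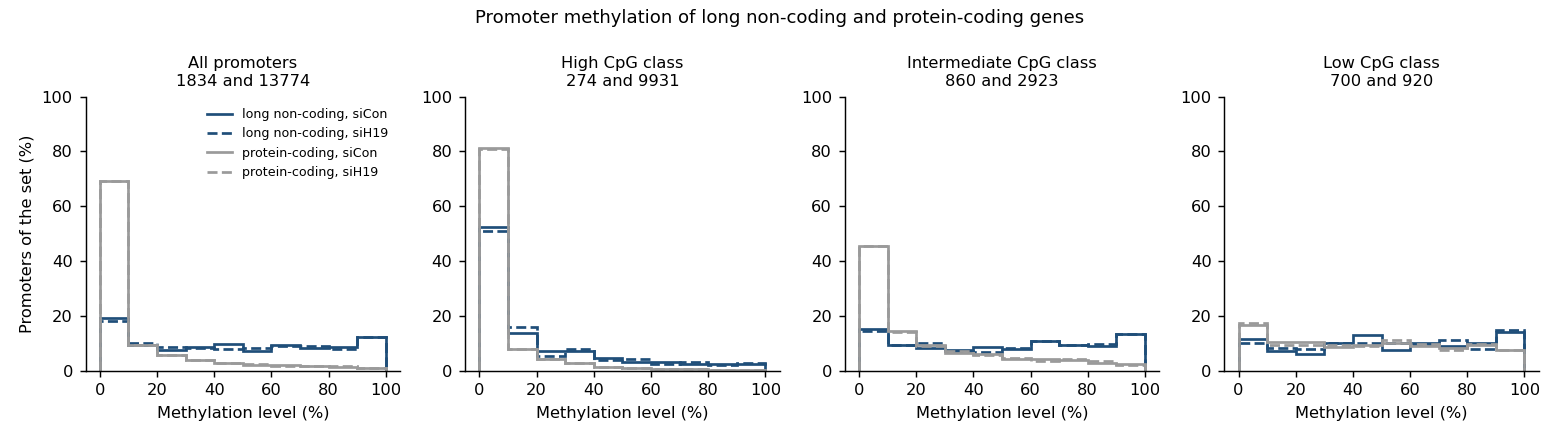
Share of promoters (y axis, %) in each 10-point step of methylation level (x axis, %) for long non-coding (blue) and protein-coding (grey) genes in siCon (solid) and siH19 (dashed), for all promoters and by CpG class, with the number of promoters of each set above each panel. In siCon 69.3% of protein-coding promoters but 19.4% of long non-coding promoters were below 10%, and the lines of both libraries nearly coincide.

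Across the members, the level fell only weakly as the number of CpGs in the window rose. Spearman's rho over the 1834 promoters was -0.256 in siCon and -0.253 in siH19, against -0.366 over the protein-coding promoters in siCon. These are correlations across promoters of the same library, which share its depth and bias, and genes are not independent replicates. The median window held 36 CpGs in the members and 87 in protein-coding promoters, and 19 in the long non-coding genes that were not measured, so the measured members are the more CpG-rich of their kind.

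The dip in methylation that marks the start of protein-coding genes was shallow around the long non-coding starts. Over all CpG classes, protein-coding promoters went from 32.5% at 1000 to 800 bases before the start to 8.12% in the last 200 bases before it. The members went from 50.9% to 37.7% over the same distance. Within the high class, protein-coding promoters fell from 29.1% to 5.34%, and members from 25.6% (SEM 4.60, 47 promoters) to 17.8% (SEM 2.08, 166 promoters). Within the low class the members stood at 55.7% and 47.0% in these steps. The siH19 library gave the same shape, with 50.4% and 38.1% over all members. Where a member had at least 3 cytosines on each side of its start, the level after the start exceeded that before it by 1.47 points on average in both libraries, with an SD over 412 promoters of 25.1 points in siCon, so the spread between promoters was far wider than the mean difference between the sides.

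**Figure D2:**
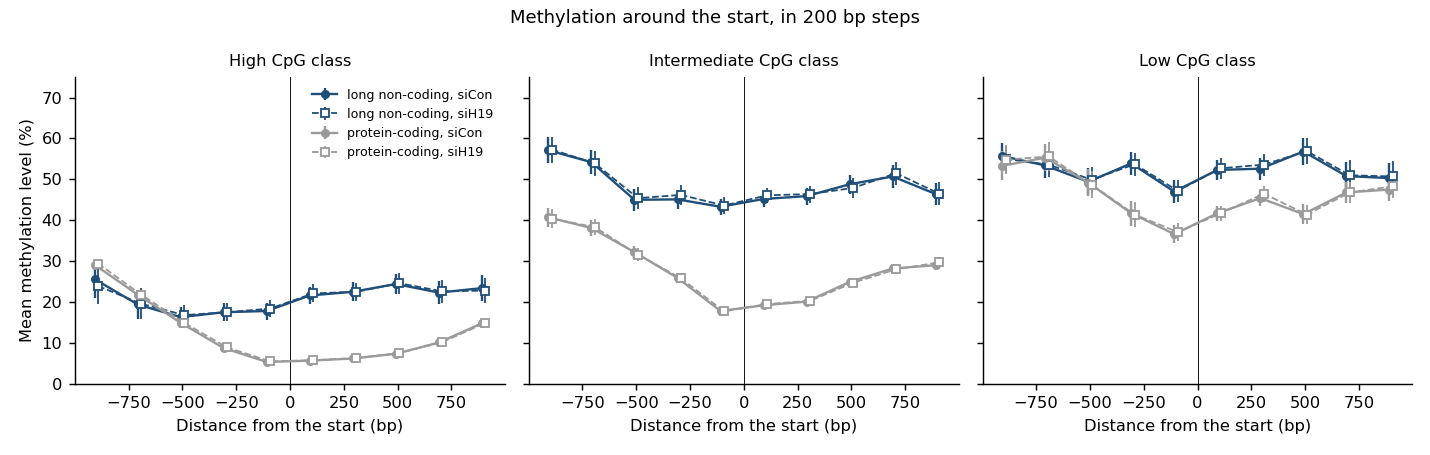
Mean methylation level (y axis, %) in 200 bp steps of the distance from the start (x axis, bp; negative is before the start), by CpG class, for long non-coding (blue) and protein-coding (grey) genes in siCon (filled circles) and siH19 (open squares); bars are the SEM over promoters. In the 200 bases before the start, members of the intermediate class stood at 43.3% in siCon and protein-coding promoters of that class at 17.8%.

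Levels also differed with where the gene lay. The 1241 members that started outside any protein-coding gene had a mean of 41.3% in siCon and 41.6% in siH19. The 501 that started inside a protein-coding gene on the opposite strand had 56.2% and 56.7%, and the 92 on the same strand 61.0% and 61.8%. Members inside a gene body had the higher means, and in the high CpG class the order was the same, with 14.4% outside (196 promoters) and 34.8% inside on the opposite strand (67 promoters). By type, sense intronic genes had 62.1%, antisense genes 55.3%, lincRNA genes 42.8% and processed transcripts 37.3% in siCon, which follows the same division, since the first 2 types are defined by overlap with another gene. Start sites in soft-masked repeats, 275 of them, had 50.1% in siCon, against 45.7% for the other 1559. This order did not hold in each CpG class. In the high class the siCon means were 18.2% in repeats (23 promoters) and 20.5% elsewhere. They were 53.3% and 48.9% in the intermediate class, and 52.8% and 52.7% in the low class.

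Genes with a proper symbol were, over all members, less methylated than those known only by a number. The 145 members with a proper symbol had a mean of 38.7% in siCon, the 400 with a RIKEN clone symbol 40.5% and the 1289 with a Gm or clone symbol 49.1%. In the high CpG class these means were 10.5% (43 promoters), 15.4% (82) and 25.9% (149). In siH19 they were 10.5%, 15.6% and 26.4%. The order did not hold in the low class, where genes with a proper symbol had 57.2% (45 promoters) and those with a Gm or clone symbol 53.1% (534).

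The distance limit of 2 kb separated the members from long non-coding genes with much lower levels. The 1621 long non-coding promoters within 2 kb of a protein-coding start had a mean of 11.6% in siCon, below the 13.2% of protein-coding promoters. Just inside the limit, 57 promoters at 1.5 to 2 kb had 28.8%, and just outside it 48 members at 2 to 2.5 kb had 37.1%, followed by 45.0% for the 31 members at 2.5 to 3 kb. The level therefore climbed through the limit rather than stepping there. The median number of CpGs in the window fell over the same distances, from 61 to 45 and then 43. Farther out the means over all CpG classes differed little, with 43.3% at 2 to 5 kb (179 members) and 46.5% beyond 100 kb (414 members). The classes went different ways over these distances in siCon. The low class went from 59.1% (60 members) to 46.9% (172), the intermediate class from 42.8% (78) to 50.7% (200) and the high class from 21.0% (41) to 24.5% (42). At the other limit, the 150 members with exactly 3 cytosines had 55%, and the 556 genes left out with exactly 2 had 48.2%.

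Within a member, cytosines often disagreed. Among the 1308 members with at least 5 cytosines, all cytosines were under 20% in 13.8% of them and all were over 80% in 5.66%. A further 28.9% held both a cytosine under 20% and another over 80%. Among the 633 of these with a mean of 20 to 80%, that share was 50.2%, and the median SD over cytosines was 26.1 points, so a middling mean was often an average over unlike cytosines. For protein-coding promoters the first 3 shares were 43.5%, 0.335% and 20.5%. Among their 2238 with a mean of 20 to 80% the share holding both was 63.0%, above that of the members. More cytosines make it easier to hold both, and protein-coding promoters had a median of 46, against 8 in the members. The median SD over cytosines of these 2238 in siCon was 24.9 points, against 26.1 in the members.

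Members at the bottom and at the top of the range differed in their makeup, and those in the middle were close to all members in position. There were 215 members under 5% in both libraries, 222 at 40 to 60% in both and 194 over 90% in both. Of the first group 51.6% were in the high CpG class and 14.9% started inside a protein-coding gene. Of the middle group 7.66% were in the high class, 32.4% started inside a gene and 28.8% were antisense. Of the last group 3.09% were in the high class and 52.1% started inside a gene, and 42.3% were of the antisense type. Over all members 14.9% were in the high class, 32.3% started inside a gene and 28.9% were antisense.

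The members with the most cytosines in each group gave precise values. Zswim6, listed as a processed transcript in this annotation although RefSeq calls the gene of that symbol protein-coding, had 1.08% in siCon and 0.957% in siH19 over 280 cytosines. AC132455.1 had 0.505% and 0.421% over 182 cytosines, Gm20732 had 0.414% and 1.14% over 181, and 1810026B05Rik had 0.469% and 0.581% over 173. All 4 were in the high CpG class, and their levels were close to 0 in both libraries. At the top, CAAA01066123.1 had 91.5% and 90.6% over 61 cytosines and Gm16599 had 97.4% and 96.5% over 60. The next in the list, 1700120K04Rik and Gm26788, had 92.9% and 91.6%, and 98.3% and 97.1%. These 4 all started inside a protein-coding gene, and 3 of them were nevertheless in the high CpG class.

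The promoters at middling levels were unlike each other. Gm26676 had 47.5% in siCon and 47.7% in siH19 over 163 cytosines, with an SD over cytosines of 22.3 points in siCon. Gm26709 had 46.6% and 50.2% over 118 cytosines, and 4930478K11Rik had 47.1% and 50% over 107. Gm45371 had 51.6% and 51.2% over 101 cytosines, but with an SD of 43.2 points. At Gm45371 every cytosine up to 507 bases after the start was at 50% or more in siCon, and every one from 716 bases on was at 29.0% or less. In siH19 the limits over the same cytosines were 70.6% and 35.5%. At Gm26709 the cytosines ran from 0 to 100% in both libraries without such a boundary in the plot of single cytosines. The differences of Gm26709 and 4930478K11Rik, 3.69 and 2.95 points, had adjusted p-values of 0.00694 and 0.0382 but were below the 10 points needed for a call. The difference of Gm26709 was -0.863 points with the deepest cytosine per fragment and strand.

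The libraries were then compared promoter by promoter with a Cochran-Mantel-Haenszel test, which compares methylated and unmethylated reads of both libraries cytosine by cytosine and pools the result. P-values were Benjamini-Hochberg adjusted over all 21201 promoters. A promoter was called with an adjusted p-value under 0.05 and a mean difference of at least 10 percentage points. Of the 1834 members, 13 were called higher in siH19, which is 0.709%, against 0.363% of all promoters. A further 7 were called lower, which is 0.382%, against 0.203%. Shares of called promoters depended on the level. Among promoters with a mean of 20 to 80% over both libraries, 1.63% of the members and 1.65% of all promoters were called, and over 80% the shares were 0.775% and 0.824%. Under 20% they were 0.380%, which is 2 of 526 members, and 0.0868%. Regardless of the test, 93 members rose and 75 fell by at least 10 points in value. These are 5.07% and 4.09%, against backgrounds of 2.06% and 1.65%. Such shares also depended on the level. At a mean of 20 to 80% they were 8.36% and 6.51% of the members, against 5.93% and 4.79% of all promoters. Over 80% they were 2.58% and 3.10%, against 2.88% and 2.59%. Under 20% they were 1.14% and 0.570%, against 0.369% and 0.239%. Counting error was larger in the members than in protein-coding promoters, as given above. The difference lay beyond its 95% limits by counting error in 8.78% of the members and 9.09% of all promoters.

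Across all members the libraries hardly differed. The mean difference, siH19 minus siCon, was 0.330 points with an SD over promoters of 5.84, and 948 members were higher, 871 lower and 15 equal. By chromosome the mean difference ran from -0.390 to 1.58 points and was above 0 on 13 of 19 autosomes. The levels of the 1834 members in siCon and siH19 had a Pearson's r of 0.983, which is across promoters that share their sequence. Of the members 91.9% were in the same level class (under 20%, 20 to 80%, over 80%) in both libraries, and none went from the lowest to the highest class or back.

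The strands of 1 library differed by more than the libraries did. A CpG carries a cytosine on each strand, and the difference between strands is taken here as the spread within a library. In the 1102 members with at least 3 CpGs measured on both strands, the SD of the difference between strands was 7.23 points in siCon and 6.92 in siH19. The SD of the difference between libraries was 6.10 points on the plus strand and 6.05 on the minus strand of the same CpGs. The same test with the same thresholds called 31 members between the strands of siCon and 29 between those of siH19, but 16 between the libraries on each strand. These are 2.81%, 2.63% and 1.45% of the members. Over all promoters the shares were 1.42% and 1.10% between strands, and 0.728% (plus strand) and 0.796% (minus strand) between the libraries. The differences between libraries on the 2 strands did not go together: they had the same sign in 47.4% of these members, with Pearson's r of 0.00244 over the members. The test thus called more members between the strands of a single library than between the libraries, as it did over all promoters. When the test statistic was divided by the inflation seen between strands, 1 member was called higher, 2410018L13Rik, and none lower, while 13 and 7 had an unadjusted p-value under 0.05 with at least 10 points. Of all promoters, 0.0330% were called higher after this division and 0 lower. With only the deepest cytosine per restriction fragment and strand, so that neighbouring cytosines of a read were not counted again, no member of 1161 was called, and 20 rose and 20 fell at an unadjusted p-value under 0.05 with at least 10 points. Of all promoters measured in that way, 0.0114% were called higher and 0 lower.

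**Figure D3:**
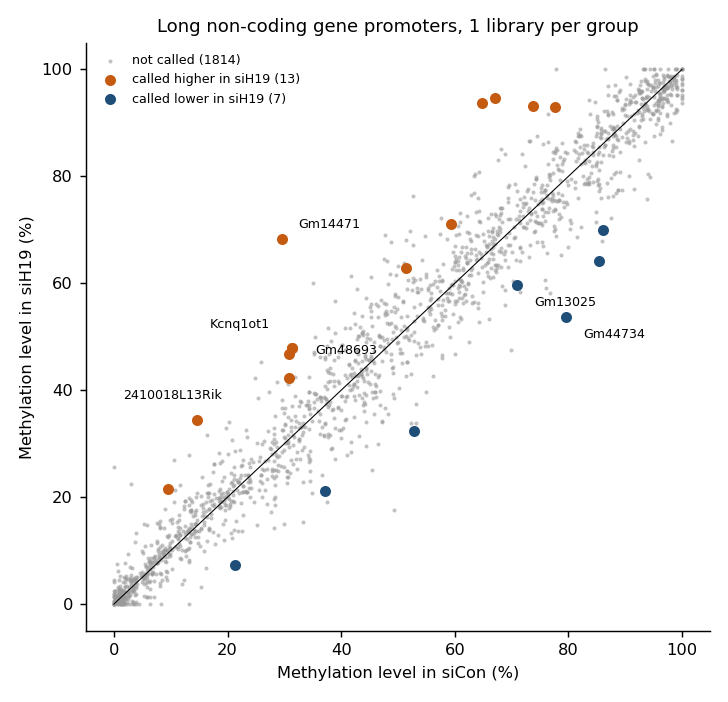
Methylation level of each of the 1834 long non-coding promoters in siCon (x axis, %) and siH19 (y axis, %), with those called higher (orange, 13) and lower (blue, 7) in siH19 and the line of equal levels. The cloud follows the line, with r of 0.983, and Gm14471 lies farthest above it among the called promoters.

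Single cytosines were compared as well. A cytosine was counted as strongly changed with a 2-sided Fisher's exact test p-value under 0.05, unadjusted, and a difference of at least 33 points. In the members 130 cytosines were strongly higher and 107 strongly lower in siH19, which is 0.466% and 0.384% of 27868. Over all autosomal cytosines outside restriction sites the shares were 0.500% and 0.456%, so the members were not above the background. These cytosines lay in 180 members. For 179 of them the cytosine on the other strand of the CpG was measured, and it moved in the same direction in 85, or 47.5%. Over all autosomal cytosines this held for 5753 of 11997, or 48.0%.

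By the rule for named promoters, the largest called rises with at least 10 cytosines and strands that moved alike were at Gm48693 and Gm49700, Kcnq1ot1 and Gm4409, and there was only 1 such fall, at Gm13025. Gm48693 and Gm49700 lie next to each other on chromosome 12 and were measured by the same 32 cytosines, so they count as 1 observation. Their level was 31.4% in siCon (261 of 933 reads methylated) and 47.8% in siH19 (388 of 1032), a difference of 16.4 points (95% interval by counting error 9.92 to 23.0) with an adjusted p-value of 0.00456. The rise was 24.1 points on the plus strand and 5.23 on the minus strand. The 17 plus-strand cytosines 155 to 272 bases after the Gm48693 start had 6 reads each in siCon and 7 or 8 in siH19. Reads of these neighbours can be the same molecules, which the interval and the test count several times. Of the 31-base words in the Gm48693 window, 93.7% occurred again elsewhere in the genome, with a median of 8 copies, so that reads from other copies may have been counted here. The part of these copies in the difference was not tested.

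Kcnq1ot1, the paternally expressed antisense RNA that silences its imprinted domain, had 30.8% in siCon (64 of 209 reads) and 46.7% in siH19 (94 of 196). The difference of 15.9 points (95% interval 6.78 to 25) had an adjusted p-value of 0.0201, and no 31-base word of its window recurred in the genome. All 12 cytosines, 6 CpGs on both strands, were higher in siH19. The rise was 8.91 points on the plus strand and 22.9 on the minus strand. The cytosines lay 938 to 979 bases after the start, and each had 17 or 18 reads in siCon and 15 to 18 in siH19. Reads of neighbouring cytosines can be the same molecules, so the test, which takes them as separate, counts such molecules several times. With 1 cytosine per fragment and strand too few cytosines were left to test Kcnq1ot1. The alleles cannot be told apart in the deposited files.

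Gm4409, an antisense gene, had 9.56% in siCon (16 of 133 reads) and 21.6% in siH19 (103 of 403), a difference of 12 points (95% interval 5.19 to 18.8, adjusted p-value 0.0357). Its 10 cytosines lay 947 to 973 bases after the start, with 9 to 20 reads each in siCon and 20 to 75 in siH19. As at Kcnq1ot1, their reads can be the same molecules, which the interval and the test count several times. At 948 bases the level fell from 11.1% to 7.89%, at 972 it stayed at 10%, and the others rose. Gm13025, a lincRNA gene, fell from 70.9% (157 of 275 reads) to 59.7% (125 of 241), by 11.1 points (95% interval -18.1 to -4.20, adjusted p-value 0.00288). The differences on the plus and minus strands were -12.2 and -10.2 points. At Gm13025 56.3% of the window was soft-masked repeat, and fewer than 3 of its cytosines lay outside repeats. Its cytosines differed widely, with an SD of 41.0 points in siCon. The cytosines 338 and 689 bases after the start were at 0 there and 8 of the other 11 were at 88.2% or more.

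The called members with the largest differences overall and the lowest p-value had fewer than 10 cytosines, and are named here after their values were seen. Gm14471, a processed transcript inside a gene on the opposite strand, had the largest difference, 29.5% in siCon (19 of 68 reads) and 68.3% in siH19 (55 of 80) over 8 cytosines, with rises of 45.5 and 32.3 points on the plus and minus strands and an adjusted p-value of 0.000148. The lowest adjusted p-value, 3.52e-07, was that of 2410018L13Rik, with 14.6% (53 of 356 reads) and 34.4% (116 of 328) over 7 cytosines of the plus strand only. Of its 31-base words 76.5% recurred elsewhere. The largest fall was at Gm44734, from 79.6% (49 of 63 reads) to 53.7% (43 of 83) over 9 cytosines. Of the 20 called members, 5 were in the high, 7 in the intermediate and 8 in the low CpG class, which is 1.82%, 0.814% and 1.14% of the members of each class. For protein-coding promoters these shares were 0.121%, 0.513% and 0.870%. The 5 in the high class included Gm48693 and Gm49700, which were measured by the same 32 cytosines, and 2410018L13Rik. Of the 31-base words of these windows, 93.7%, 92.1% and 76.5% recurred elsewhere.

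The genes of imprinted domains lay mostly between the extremes. Of 23 genes listed, 8 were measured, 1 was called higher (Kcnq1ot1, above) and none lower. Mir124a-1hg stood on this list as well as on that of the microRNA hosts, among which it is given below. It is counted among the 8 by listing alone, and whether it lies in an imprinted domain was not tested. H19, transcribed from the maternal copy in a domain shared with Igf2, had 28.9% in siCon (132 of 440 reads) and 24.8% in siH19 (152 of 720), a difference of -4.09 points (95% interval -10.2 to 1.99) with p-values of 0.0194 before and 0.152 after adjustment. The differentially methylated region that controls the domain lies upstream of the window, so it does not enter this value. The interval of the difference at the H19 promoter itself included 0, and the cytosines did not all move together. On the plus strand 271 bases after the start it had 25% and 35.7%, and on the minus strand 270 bases after the start 62.5% and 25.8%.

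Airn, the antisense RNA that silences Igf2r, had 29.5% and 36.6% over 15 cytosines, a difference of 7.07 points (95% interval -1.11 to 15.2), which was -0.605 points with the deepest cytosine per fragment and strand. Peg13, transcribed from the paternal copy inside another gene, had 34.1% and 38.0% over 42 cytosines, with an adjusted p-value of 0.108. Meg3, transcribed from the maternal copy, had 70.8% and 64.4% over 25 cytosines, with a difference of -6.41 points (95% interval -13 to 0.207). The direction at Meg3 turned to 0.297 points with at least 10 reads per cytosine and to 1.5 points when reads were summed over the promoter. Zim3, listed as antisense and near Peg3, had 49.1% and 50.9% over 32 cytosines. Nespas, antisense to the Gnas domain, rested on 3 cytosines, with 4 of 63 reads methylated in siCon and 0 of 24 in siH19, too few to compare. None of these 5 passed the test.

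**Figure D4:**
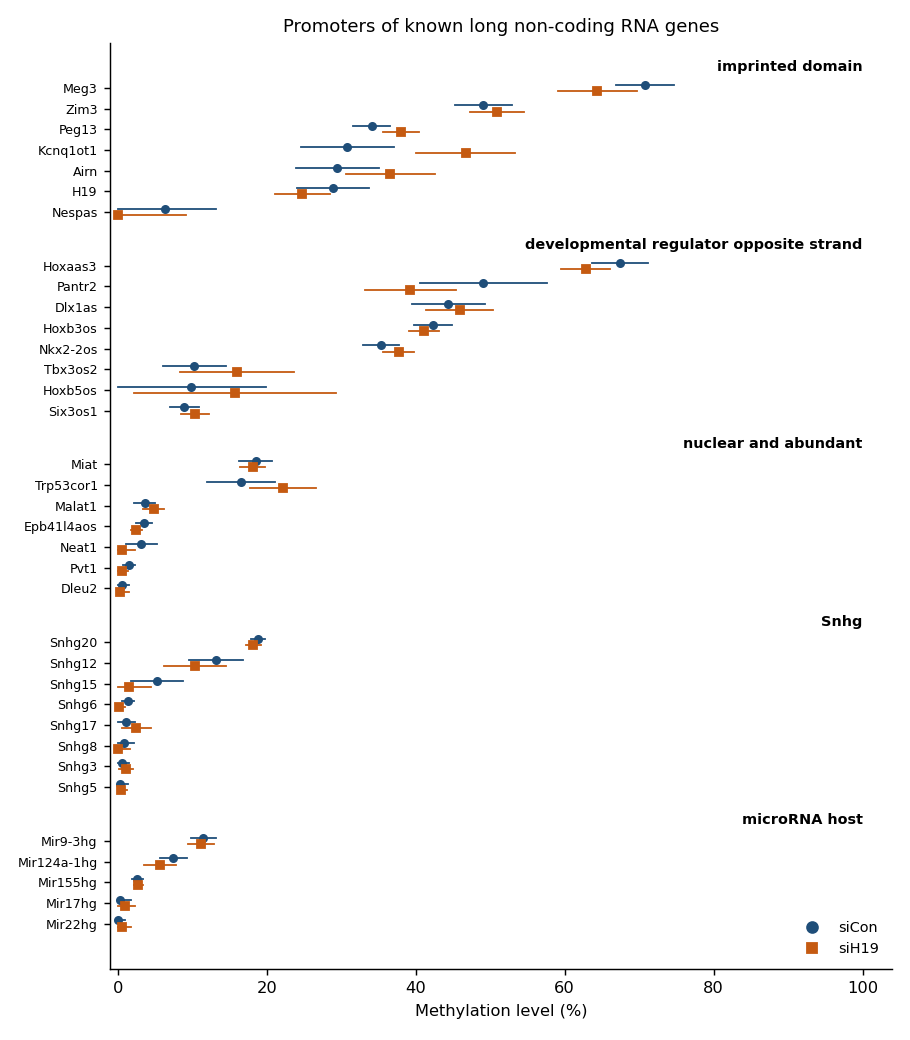
Methylation level (x axis, %) of the promoters of listed long non-coding RNA genes in siCon (blue circles) and siH19 (orange squares), grouped by list; bars are 95% intervals from read counts alone, cut at 0 and 100. Genes of imprinted domains and those opposite developmental regulators lie mostly at middling levels, up to 70.8%, and the other 3 lists lie under 20% in siCon.

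Genes transcribed near or opposite developmental regulators varied most among the other lists. Of 46 genes listed, 17 lay beyond 2 kb and 8 were measured, with a median of 38.8% in siCon and 38.5% in siH19, and none was called. Hoxaas3, in the Hoxa cluster, had 67.4% and 62.8% over 44 cytosines. Pantr2, next to the neural gene Pou3f3, had 49.1% and 39.3% over 10 cytosines, with a difference of -9.72 points (95% interval -20.2 to 0.804). Dlx1as, opposite Dlx1, had 44.4% and 45.9%, Hoxb3os 42.3% and 41.1%, and Nkx2-2os 35.3% and 37.7%. Six3os1, opposite the eye and forebrain regulator Six3, was the low one among those with many cytosines, with 8.92% and 10.4% over 49. Of these 6 promoters, those of Hoxaas3, Pantr2 and Nkx2-2os were in the high CpG class and that of Six3os1, the lowest, in the intermediate class.

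Among the nuclear and abundant long non-coding RNAs, 5 of 7 measured promoters were under 5% and 2, Miat and Trp53cor1, had higher means. Of 20 genes listed 7 were measured, all under 20% in siCon, with medians of 3.54% and 2.48% and no call. Malat1, a nuclear speckle RNA, had 3.61% in siCon and 4.86% in siH19 over 36 cytosines. Neat1, the RNA that builds paraspeckles, had 3.15% and 0.522% over 30, with an adjusted p-value of 0.0547. Dleu2 had 0.570% and 0.273% over 95 cytosines, Pvt1, next to Myc, 1.52% and 0.585% over 32, and Epb41l4aos 3.54% and 2.48% over 56. Miat was the highest of the 6 with the most cytosines, at 18.5% and 18.1%. Its SD over cytosines was 19 points, so its cytosines differed among themselves. Trp53cor1, named here outside the rule, had 16.6% in siCon and 22.2% in siH19 over 18 cytosines. Its direction turned to -1.61 points with at least 10 reads per cytosine. The Trp53cor1 cytosines 16 to 289 bases after the start were at 3.45% or less in siCon and 1.79% or less in siH19. The others lay far before the start and were at 16.7 to 86.7% in siCon, with 6 to 15 reads each. From summed reads the level of Trp53cor1 was 4.59% in siCon and 6.39% in siH19.

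Host genes of small RNAs were low as well. The Snhg genes carry small nucleolar RNAs in their introns, and 8 of them were measured, all under 20% in both libraries with medians of 1.25% and 1.31%. Snhg5 had 0.298% and 0.387% over 56 cytosines, Snhg6 1.36% and 0.164% over 49, Snhg8 0.773% and 0.0772% over 37, Snhg3 0.580% and 1.06% over 36, and Snhg17 1.14% and 2.47% over 28. Snhg20 was the exception among the 6 with the most cytosines, at 18.8% and 18.2%, with an SD over cytosines of 39.2 points. The difference at Snhg6 had an adjusted p-value of 0.0118 but amounted to -1.19 points. Among the 5 microRNA host genes, Mir22hg had 0 of 1141 reads methylated in siCon and 0.574% in siH19, Mir17hg 0.274% and 0.995%, Mir155hg 2.64% and 2.74%, Mir124a-1hg 7.46% and 5.70%, and Mir9-3hg 11.5% and 11.2%. None of them was called.

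**Figure D5:**
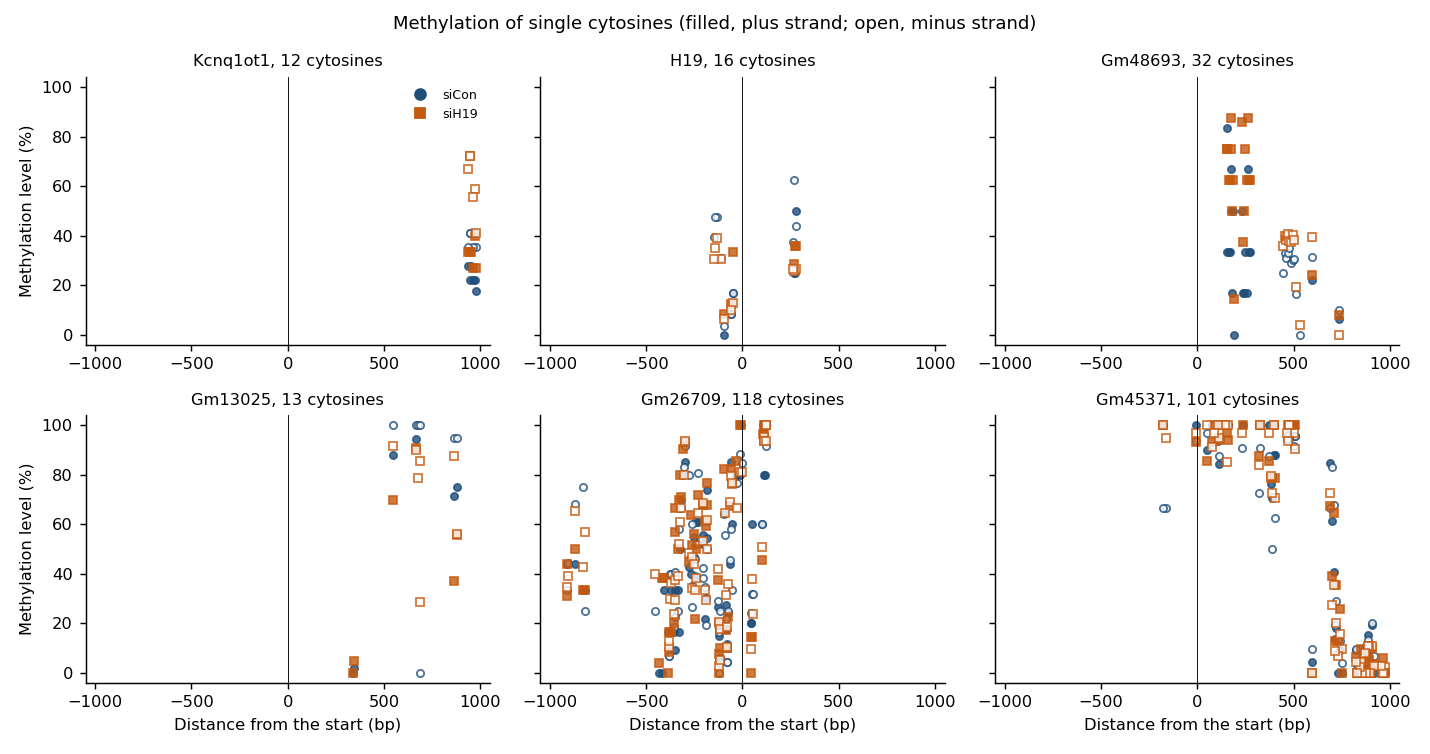
Methylation level (y axis, %) of each measured cytosine against its distance from the start (x axis, bp) in 6 promoters, with siCon as blue circles and siH19 as orange squares, filled on the plus and open on the minus strand of the chromosome. At Kcnq1ot1 the 12 cytosines form 1 tight group far from the start, with siH19 above siCon at each, while at Gm45371 both libraries drop from high to low levels within the window.

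Among short sequence words at the start, the GC box went with the largest difference in level of the 4 commonest. The bases from 250 before to 50 after each start were searched on both strands. GGGCGG, the core of the GC box, was present in 20.4% of the members and 60.8% of protein-coding promoters, and in 23.6% of all autosomal gene windows. Members that held it had a mean of 31.4% in siCon, against 50.2% for the rest, and a median of 60 CpGs in the 2 kb window, against 34. Within the intermediate CpG class the means were 39.5% (146 promoters) and 51.6%. The words CCAAT (33.3% of the members, 38.2% of all windows) and TATAAA (11.5% and 17.2%) went with smaller differences, 44.9% against 47.1% and 48.4% against 46.1%. CAGCTG, a word bound by myogenic factors, was present in 19.7% of the members and 15.3% of all windows, with means of 45.5% and 46.6% with and without it. Of the rarer words, TGACGTCA was in 1.36% of the members, GCGCATG in 3.65% and CCGGAAG in 6.65%, against 1.31%, 2.79% and 6.11% of all windows. These are matches of letters, and occupancy by any factor was not measured.

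Some members are repeated sequence or differ between annotations. At 183 members at least 20% of the 31-base words of the window recurred elsewhere in the genome, and their mean was 47.3% in siCon and 48.7% in siH19. They included 4 of the 20 called members, all called higher. Gm48693 and Gm49700 among these were measured by the same 32 cytosines and count as 1 observation. Set against these 4 of 183, 0.709% of all members and 0.363% of all promoters were called higher. The deepest members, Gm42418, AY036118 and Gm26917 on chromosome 17, had 211450, 209468 and 204346 reads in siCon, with levels of 9.06%, 6.23% and 7.63%, against a median of 190 reads over all members. Of their 31-base words 39.5%, 28.4% and 26.6% recurred elsewhere. They start at 39846958, 39848035 and 39843013, so the windows of Gm42418 and AY036118 overlap. The part of other copies in their reads was not tested. The read-weighted level of all member cytosines was 18.3% in both libraries, far below the mean over promoters. All member cytosines together had 1370992 reads in siCon, so the deepest members weigh heavily in this level. By symbol, 922 members matched a RefSeq gene, of which 875 were long non-coding RNAs there too and 30 protein-coding, with a mean of 30.0% in siCon for the latter.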

How the data were processed

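Reduced representation bisulfite sequencing, after digestion with MspI and TaqI, was analysed for 1 siCon and 1 siH19 library. The authors aligned reads with Bismark in non-directional mode in a service provider's pipeline, and whether duplicates were removed is not given in the sources used here. The submitters' processing notes name bcl2fastq 1.8.4 and mm10. For each CpG cytosine and strand the deposited files give a text field that holds the number of methylated reads, that of all reads and their rounded percent, and a score, the methylated fraction scaled by the authors. Counts were read from the text field, and the deposited score served only to check the parsing (100% matched). Reads were summed over neither strands nor cytosines.

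A promoter level is the unweighted mean percent of its cytosines. Starts came from the GENCODE vM21 basic annotation of GRCm38. Cytosines needed 5 reads in both libraries, and a promoter 3 cytosines. Intervals are 1.96 counting errors. The Cochran-Mantel-Haenszel test took each cytosine as a stratum, with Benjamini-Hochberg adjustment over 21201 promoters, and Fisher's exact test was run per cytosine. With 1 library per group the p-values compare libraries. The CpG class was high with a 500 bp stretch of CpG observed/expected ratio above 0.75 and over 55% GC, low where no stretch exceeded 0.48, and otherwise intermediate. The test was checked on simulated data in which the reads of each cytosine were drawn independently. That check does not cover molecules shared by neighbouring cytosines. Another 13 settings, and 2 chosen after seeing the data, were tried, and their effect is given in the closing section.

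The members and gene lists were chosen with earlier results of these data known. Named promoters were listed genes (the 6 with most cytosines where more were measured), the up to 4 largest called differences per direction with at least 10 cytosines and strands that moved alike, and the 4 with most cytosines under 5%, at 40 to 60% and over 90% in both libraries. Sequences came from the GRCm38 genome, and gene classes by symbol from RefSeq. Software was Python 3.11.15 with numpy 2.4.6, pandas 2.3.3, scipy 1.17.1 and matplotlib 3.10.9.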

Additional observations from a re-analysis of the deposited data

How the results depend on the processing

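No paired analysis was possible because each group is 1 library. The mean level of the members in siCon, 46.4%, was 43.8% with at least 10 reads per cytosine, 44% with at least 5 cytosines, 57.3% with restriction-site cytosines kept, 45.5% with strands summed, 45.0% without soft-masked cytosines, 43.4% within 500 bp of the start, 44.3% with gene-level protein-coding starts, 42.1% with the deepest cytosine per fragment and strand and 46.0% from summed reads. The excess over protein-coding promoters, 33.2 points, was 31.8, 32.1, 30.8, 32.8, 32.4, 32.4, 31.1 and 29.6 points under the first 8 of these settings. Leaving out members that RefSeq calls protein-coding, a choice made after seeing the data, gave 46.7% and 33.5 points. The mean difference between libraries, 0.330 points, was 0.0649 with the deepest cytosine per fragment and strand, 0.534 with restriction-site cytosines kept and 0.215 without windows of repeated words.

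The 13 higher and 7 lower calls became 0 and 0 with the deepest cytosine per fragment and strand (20 and 20 at an unadjusted p-value under 0.05 with 10 points), 49 and 32 from summed reads, 3 and 3 at 20 points, and 1 and 0 after division by the strand inflation (13 and 7 at the unadjusted p-value). In the same order, the shares of all promoters called higher and lower were 0.0114% and 0, 1.41% and 0.948%, 0.0896% and 0.0566%, and 0.0330% and 0. Among the members the lower calls were 4 with at least 10 reads and 4 within 500 bp, against 0.153% and 0.205% of all promoters. Leaving out windows with at least 20% repeated 31-base words, also chosen after seeing the data, left 9 and 7. The strongly changed cytosines, 130 and 107, were 382 and 305 with restriction sites kept and 308 and 221 at 20 points, and the lower ones 71 with at least 10 reads. For the named promoters, 818 values kept their direction and side of the threshold, 73 lost the call, 1, Peg13 from summed reads, gained it, and 50 changed sign. No called promoter changed sign. The sign changes were at promoters without a call, and each value is a difference in points, siH19 minus siCon. With at least 10 reads per cytosine the values were Meg3 0.297, Trp53cor1 -1.61, Mir9-3hg 0.350 and AC132455.1 0.0684. With restriction-site cytosines kept the values were Dleu2 0.113, Snhg5 -0.0301, Mir9-3hg 0.374 and Mir155hg -0.244. With strands summed the values were Zim3 -0.0323, Hoxb5os -5.86, Mir9-3hg 0.00665, Mir155hg -0.199, AC132455.1 0.0116 and Gm26676 -0.826. Without soft-masked cytosines the value of Trp53cor1 was -0.327. Within 500 bp of the start the values were Miat 11.5, Trp53cor1 -0.272, Malat1 -0.840, Zswim6 0.202, Gm20732 -0.0460, 1810026B05Rik -0.107, Gm26676 -1.68 and Gm45371 1.85. With the deepest cytosine per fragment and strand the values were Airn -0.605, Miat 4.64, Trp53cor1 -2.01, Malat1 -0.409, Hoxb3os 1.17, Six3os1 -2.43, Snhg5 -0.889, Mir9-3hg 2.29, Mir17hg -0.0909, Mir155hg -2.10, 1810026B05Rik -0.343, Gm26676 -1.21, Gm26709 -0.863, CAAA01066123.1 5.08, Gm16599 0.248, 1700120K04Rik 1.37 and Gm26788 0.191. At equal depth the values were Dleu2 0.00581 and 1810026B05Rik -0.00726. From summed reads the values were Meg3 1.5, Miat 1.40, Tbx3os2 -0.941, Snhg12 4.49, Snhg20 6.70, Mir155hg -0.138, AC132455.1 0.185 and Gm16599 0.00285. The cause of these changes was not tested. A median of 190 reads per member in siCon gave a median counting error of 4.06 points, so differences of a few points were not detectable in most members.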
